A study of Mus musculus with 4 samples.

Results

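The unfolded protein and ATF4 stress genes are a set of 10 genes taken from 54456 gene symbols in droplet single-cell RNA sequencing of dissociated mouse liver. They were chosen by name, with earlier results of these data known, and fall into 2 arms of 5. The chaperone arm holds Hspa5, Herpud1, Dnajb9, Xbp1 and Sdf2l1, and the ATF4 arm holds Atf4, Ddit3, Trib3, Chac1 and Asns. All 10 were found among the files' symbols. The question put to the data was whether the 2 arms stood at the same level, and differed in the same direction, across cell classes and libraries. The cells were liver non-parenchymal cells of C57BL/6J mice aged 30 weeks, and the series varies a high fat diet (HFD) and exercise, each present or absent. Of 4 groups with 1 library each, S, HFD_sed and HFD_EXE were analysed, and E was not analysed here. The labels do not spell out these letters, so HFD_sed is taken to be the high fat diet without exercise, HFD_EXE the same diet with it, and S neither. The diet's make-up, the form and length of the exercise and the number of mice behind a library are not in the labels.

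Proteins that fail to fold in the endoplasmic reticulum (ER) set off the unfolded protein response through the sensors IRE1, ATF6 and PERK. IRE1 splices the Xbp1 transcript, and the XBP1 and ATF6 proteins then raise chaperones and degradation factors of the ER. PERK instead phosphorylates the translation factor eIF2 alpha, as do the kinases GCN2, HRI and PKR under other stresses, and the ATF4 protein made under these conditions switches on amino acid and cell death genes. The ATF4 arm can therefore be raised without the chaperone arm. Much of ATF4 control is translational, so the Atf4 transcript is an incomplete measure of it. Counts from the 3′ end do not tell spliced from unspliced Xbp1.

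Promoters are shown for 4 genes, 2 of each arm, because they carry the elements by which the arms are usually told apart. Windows of 250 bases before to 50 bases after each annotated start came from RefSeq, build GRCm38.p6, whereas the counts were made on GRCm39. All 10 members had a window. On both strands the windows were searched for the ER stress element, CCAAT and CCACG with 9 bases of any kind between them, for its second form, ATTGG and CCACG with 1 base between them, and for TGATGNAA, the core of the elements bound by ATF4 with its C/EBP partners. The 3 motifs are not parts of each other. Capitals mark the matches, and only the 250 bases before the start are printed, 5′ to 3′ on the gene's strand.
Hspa5, chr2:34771840-34772089, plus strand: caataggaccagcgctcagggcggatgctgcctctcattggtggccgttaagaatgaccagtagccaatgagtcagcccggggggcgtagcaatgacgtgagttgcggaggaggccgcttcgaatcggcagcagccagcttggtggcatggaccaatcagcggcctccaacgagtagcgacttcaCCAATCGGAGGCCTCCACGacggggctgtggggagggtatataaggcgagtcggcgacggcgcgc
Herpud1, chr8:94386179-94386428, plus strand: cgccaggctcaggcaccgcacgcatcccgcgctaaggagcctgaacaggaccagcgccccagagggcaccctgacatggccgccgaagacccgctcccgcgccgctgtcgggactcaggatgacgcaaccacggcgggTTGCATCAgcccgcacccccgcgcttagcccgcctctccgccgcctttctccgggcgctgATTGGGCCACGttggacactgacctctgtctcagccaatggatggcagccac
Chac1, chr2:119350992-119351241, plus strand: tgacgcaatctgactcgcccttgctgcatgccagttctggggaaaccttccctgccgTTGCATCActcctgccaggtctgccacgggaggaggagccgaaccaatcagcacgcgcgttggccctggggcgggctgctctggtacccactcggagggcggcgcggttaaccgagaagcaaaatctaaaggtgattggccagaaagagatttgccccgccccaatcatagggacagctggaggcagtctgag
Asns, chr6:7693210-7693459, minus strand: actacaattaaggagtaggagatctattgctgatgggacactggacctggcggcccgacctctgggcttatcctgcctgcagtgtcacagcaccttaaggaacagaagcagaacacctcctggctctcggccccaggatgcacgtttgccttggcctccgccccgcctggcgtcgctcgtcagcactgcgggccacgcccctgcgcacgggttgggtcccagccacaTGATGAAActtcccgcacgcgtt
The ER stress element of Hspa5 began 65 bases before the start, and that sequence occurred in 0.119% of 32851 windows. The second form began 52 bases before the start of Herpud1 and occurred in 0.0365% of windows. Herpud1 also held the TGATGNAA core, read on the other strand as TTGCATCA, 112 bases before its start. The same core lay 193 bases before the start of Chac1 and 23 before that of Asns, and it occurred in 3.97% of windows. Trib3 held it after its start. Of the 10 windows, 5 held a match, and a match or its lack says nothing here on binding by a factor.

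The matrices held 11280 to 11752 barcodes a library, above the 5000 to 6000 captured cells that the labels state, and the difference is not explained there. After filtering, 10172 to 10740 cells a library remained, with 57099173 to 76875425 unique molecular identifiers (UMIs, barcodes that count 1 captured transcript each). Any pair of these 3 libraries shared 30 to 43 cell barcodes. Clusters were named after the cell type whose markers they carried and are cells like that type. Classes with at least 100 cells in each library were compared, which gave 9: liver sinusoidal endothelial cells (LSEC), vascular endothelium, Kupffer cells, monocytes or monocyte-derived macrophages (monocytes below), conventional dendritic cells, neutrophils, T cells, B cells and hepatocytes. Hepatocytes are parenchymal, and this class held 1595, 134 and 509 cells in S, HFD_sed and HFD_EXE. In S, 1458 of them formed a cluster of low UMI counts whose leading genes were hepatocyte genes together with Zfp503, which also led an LSEC cluster. At a Leiden resolution of 0.5 the class held 138 cells of S and LSEC held 4208 in place of 2945. Libraries stood apart within classes: 96.9% of LSEC of S, 85.0% of those of HFD_sed and 82.9% of those of HFD_EXE lay in 3 different clusters. With 1 library a group there is no test between groups. Levels are UMIs of the gene per 1000000 UMIs of the class (CPM), and brackets give exact 95% Poisson or binomial intervals, which cover counting error only.

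Hspa5 encodes BiP, the main chaperone of the ER and the brake on its sensors. Its highest level among the compared classes lay in Kupffer cells of S at 685 CPM [674, 696], in monocytes of HFD_sed at 813 CPM [795, 831] and in dendritic cells of HFD_EXE at 628 CPM [591, 667]. In HFD_EXE the intervals of neighbours overlapped along the first 3 places, dendritic cells, Kupffer cells and monocytes. In S the 4 myeloid classes held the first 4 places without overlap, in the order Kupffer, dendritic, monocyte and neutrophil. B cells, hepatocytes, LSEC, vascular endothelium and T cells followed between 253 and 220 CPM, each overlapping the next. The hepatocyte level of S is mostly that of the cluster of low UMI counts. Plasma cells, too few to compare (18, 37 and 47 cells), held 1148, 1021 and 1053 CPM in S, HFD_sed and HFD_EXE.

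The other chaperone arm genes were ordered differently. Sdf2l1, a partner of the ER's DnaJ chaperones, had the widest range of the arm in S: 1.44 CPM in neutrophils (3 UMIs) and 78.1 CPM in dendritic cells. Dendritic cells were highest and neutrophils lowest for it in all 3 libraries. Xbp1, the factor that IRE1 activates, was lowest in T cells in each library (37.9, 49.9 and 42.4 CPM in S, HFD_sed and HFD_EXE). It was highest in monocytes of S (238 CPM) and HFD_sed (231 CPM) and in Kupffer cells of HFD_EXE (287 CPM). Plasma cells, whose secretory growth depends on XBP1, held 1538, 1130.4 and 1019 CPM. Dnajb9, a co-chaperone that turns on BiP's ATPase and restrains IRE1, stayed between 42.3 and 82.7 CPM in S and reached 127 CPM in neutrophils of HFD_sed. Herpud1, a membrane protein of ER-associated degradation, ran from 60.3 CPM in T cells to 171 CPM in dendritic cells in S. In HFD_EXE it ran from 67.0 CPM in T cells to 377 CPM in hepatocytes.

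Atf4, the transcription factor that gives the arm its name, varied least between classes. Its highest class was B cells in each library, with 204 CPM [188, 221] in S, 289 CPM [270, 308] in HFD_sed and 217 CPM [197, 240] in HFD_EXE, and the highest class was 1.51 to 1.86 times the lowest. All neighbouring classes below B cells had overlapping intervals in each library, but LSEC moved from the eighth place in S to the second in HFD_sed. Ddit3 encodes CHOP, a factor tied to stress-induced cell death, and was highest in neutrophils in every library (110, 116 and 104 CPM). Chac1, an enzyme that breaks down glutathione, was also highest there, at 41.8 CPM in S (87 UMIs), 27.4 in HFD_sed (36 UMIs) and 41.8 in HFD_EXE (82 UMIs). Outside neutrophils its highest level among compared classes was 6.90 CPM, in LSEC of HFD_sed. Trib3, a pseudokinase that binds and restrains ATF4, was highest in hepatocytes of S (11.0 CPM, 60 UMIs) and HFD_EXE (17.6 CPM, 38 UMIs) but in LSEC of HFD_sed (14.9 CPM, 218 UMIs). That last order is not resolved, since hepatocytes of HFD_sed had 1 UMI (2.47 CPM [0.0626, 13.8]) and vascular endothelium stood at 13.3 CPM, both overlapping LSEC. Asns, the enzyme that makes asparagine, had at most 44 UMIs in any class and library compared. Its top compared class was neutrophils with 4.80, 7.62 and 6.12 CPM, while plasma cells held 39.8, 38.7 and 41.1 CPM. Plasmacytoid dendritic cells, with 82 to 114 cells a library, held no UMI of Trib3, Chac1 or Asns.

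**Figure D1:**
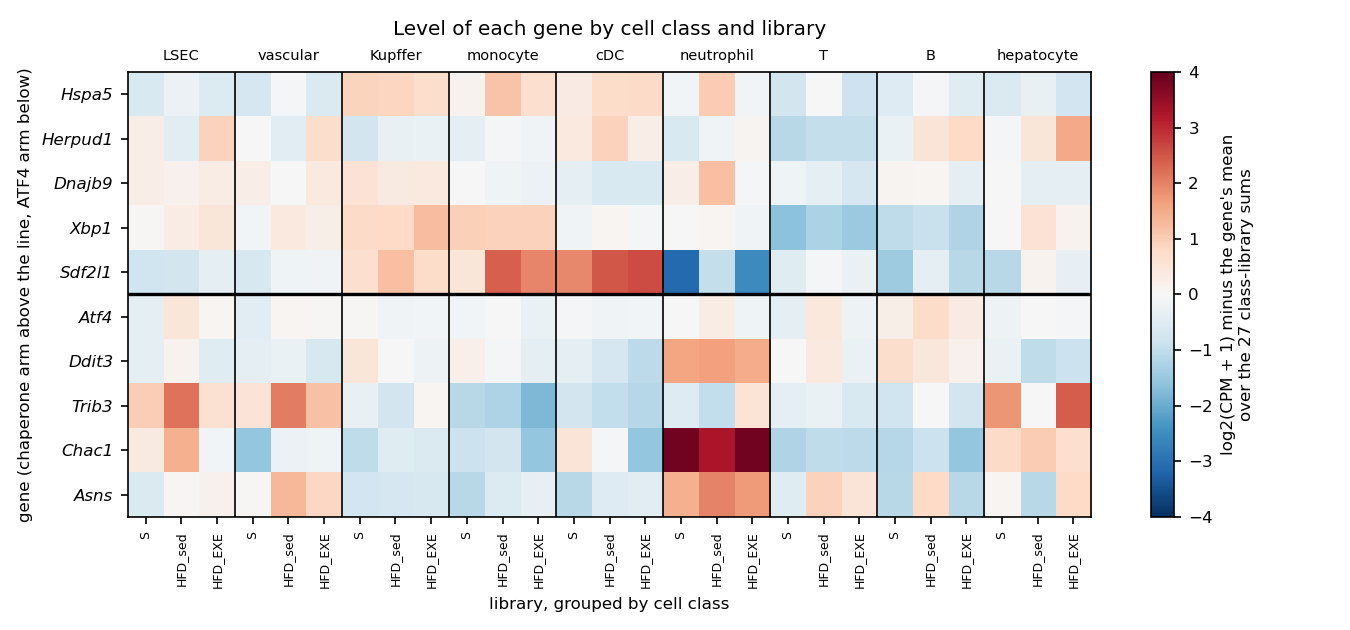
Level of the 10 genes (rows) in 9 cell classes and 3 libraries (columns), as log2(CPM + 1) minus the gene's mean over the 27 sums, with red above and blue below that mean. Chac1 and Ddit3 are red in neutrophils of every library, Sdf2l1 is red in dendritic cells, and Atf4 is pale throughout.

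Pairs of members were also set against each other by level. Over the 27 class and library sums, the Pearson correlation of log2(CPM + 1) had a median of 0.19 over the 10 pairs within the chaperone arm (from -0.35 to 0.62) and 0.29 over the 10 pairs within the ATF4 arm (from -0.20 to 0.58). Over the 25 pairs between the arms the median was 0.0077, from -0.60 to 0.51. The 27 sums share libraries and depth, and sums with few UMIs of Trib3, Chac1 and Asns weaken any correlation. Among 11012 genes with at least 1000 UMIs, those most like Hspa5 were Atp6v1f (Pearson's r = 0.900), Clec4b1 (0.892), Bcl2a1a (0.888), Cd68 (0.887) and Brk1 (0.885). Those most like Atf4 were Gpbp1 (0.755), Ighg3 (0.739), Hnrnpu (0.699), Sfpq (0.697) and Igkc (0.688).

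The comparison of HFD_sed with S asks how the arms differed with the diet, in mice without exercise. A gene counted as measured in a class from 20 UMIs summed over the pair of libraries, and a call of higher or lower needed a CPM ratio of 1.5 or more with an interval clear of 1. Of 45 pairs of a chaperone arm gene and a class, 44 were measured, of which 9 were higher and 1 lower in HFD_sed. Of 45 pairs in the ATF4 arm, 29 were measured, of which 7 were higher and 1 lower. Over all genes, 10.9% of gene and class pairs were higher and 10.5% lower by the same rule. Of the 7 higher calls of the ATF4 arm 4 were in LSEC, where no chaperone arm gene was higher. In neutrophils and monocytes the chaperone arm had 4 higher calls and the ATF4 arm had none higher. T cells had higher calls in both arms.

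LSEC line the liver's capillaries. Atf4 there was 130 CPM [126, 135] in S, 240 [232, 248] in HFD_sed and 182 [177, 187] in HFD_EXE. The 3 intervals were apart, with HFD_sed highest and S lowest, and the log2 ratio of HFD_sed over S was 0.89 [0.82, 0.95]. Trib3 was 6.00 CPM (149 UMIs), 14.9 (218 UMIs) and 4.37 (134 UMIs) in S, HFD_sed and HFD_EXE, a log2 ratio of 1.31 [1.01, 1.62] for HFD_sed over S. Chac1 was 2.82 CPM (70 UMIs), 6.90 (101 UMIs) and 1.73 (53 UMIs), a log2 ratio of 1.29 [0.84, 1.75]. Both genes were high in HFD_sed alone. Asns was 0.443 CPM (11 UMIs), 1.23 (18 UMIs) and 1.44 (44 UMIs), and although S was lowest its interval [0.221, 0.792] overlapped that of HFD_sed [0.729, 1.94]. Its log2 ratio of 1.47 [0.31, 2.70] rests on few counts. Ddit3 was 27.3, 40.4 and 25.5 CPM, and at 0.56 [0.40, 0.73] its ratio lay just under the fold of 1.5. Over all genes measured in LSEC, 14.7% were higher and 9.10% lower.

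The chaperone arm of LSEC did not follow. Herpud1 was 159 CPM [154, 164] in S, 95.5 [90.6, 101] in HFD_sed and 247 [241, 252] in HFD_EXE, and was called lower in HFD_sed with a log2 ratio of -0.73 [-0.82, -0.65]. HFD_sed was thus the lowest library for Herpud1 and the highest for Atf4. Hspa5 was 239, 308 and 249 CPM, a log2 ratio of 0.37 [0.31, 0.42] for HFD_sed over S, under the fold asked for. Dnajb9, Xbp1 and Sdf2l1 had log2 ratios of -0.11 [-0.23, 0.01], 0.25 [0.17, 0.33] and 0.06 [-0.22, 0.34]. Summed over its 5 genes, the chaperone arm had a log2 ratio of 0.06 [0.02, 0.10] and the ATF4 arm one of 0.87 [0.80, 0.93]. The sum of the ATF4 arm is mostly Atf4, and that of the chaperone arm mostly Hspa5 and, in LSEC, Herpud1 and Xbp1.

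The wider lists of LSEC did not move together. Of 16 other ER chaperones and folding enzymes none was called in either direction, with a median log2 ratio of 0.01 against 0.07 over all genes. Of 15 measured genes of ER-associated degradation and translocation, none was called either. The 12 tRNA synthetases, a list tied to amino acid use, also had no call, with a median of 0.007. Of 13 measured genes of ATF4-linked amino acid metabolism and transport, 7 were higher and none lower, with a median of 0.87. They included the cystine transporter Slc7a11 (0.362 CPM in S and 3.01 in HFD_sed), the arginine and lysine transporter Slc7a1 (4.43 and 17.8 CPM), the glutamine transporter Slc38a2 (307 and 696 CPM) and Aldh18a1 of proline synthesis (1.69 and 4.99 CPM). Of 9 measured ATF4-linked transcription factors and signals, 6 were higher and none lower, with a median of 1.56. Atf3 stood at 10.6 CPM in S and 69.4 in HFD_sed, Cebpb at 47.0 and 245, Gdf15 at 0.724 and 5.47, and Tnfrsf10b at 1.13 and 7.45. Among 12 sensors and eIF2 alpha phosphatases, 2 were higher: Ppp1r15a, the phosphatase subunit that ends eIF2 alpha phosphorylation (199 and 548 CPM), and the kinase Eif2ak2 (51.8 and 79.8 CPM).

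Other lists moved with these genes. Of 12 immediate early genes, which respond to stimulation and to tissue dissociation, 11 were higher in LSEC of HFD_sed than of S, and their summed level was 3140, 8039 and 4745 CPM in S, HFD_sed and HFD_EXE. Of 10 cytosolic heat shock genes, 5 were higher, with sums of 777, 1040 and 795 CPM. The summed level of 20 hepatocyte transcripts in LSEC, a measure of free RNA, was 1464, 846 and 1000 CPM, and median UMIs per cell were 7599, 5420 and 5356. Over all kept cells those transcripts stood at 3447, 1067 and 3090 CPM. Set against that, the upper limit of free RNA in LSEC was 42.5%, 79.3% and 32.4%, highest in HFD_sed. All kept cells include the hepatocyte class, with 1595, 134 and 509 cells, so this limit also depends on how many of those were kept. The part of these lists and of free RNA in the ATF4 arm was not tested. Neither was that of the clusters, since cluster 1 held most LSEC of S and cluster 2 most of HFD_sed. Within cluster 1, Atf4 was 130 CPM [126, 135] in S and 172 [118, 241] in 69 cells of HFD_sed. Within cluster 0 it was 102 CPM [72.6, 138] in 56 cells of S, 201 [165, 242] in 184 cells of HFD_sed and 168 [163, 173] in HFD_EXE. Within those clusters, Herpud1 was 159 and 78.1 CPM, and 142, 96.6 and 250 CPM. Both genes thus kept their direction within single clusters, though some intervals overlapped. Trib3 did not: within cluster 0 it was 12.7 CPM (5 UMIs) in S and 11.2 (6 UMIs) in HFD_sed. Clustering without scaled genes and at a Leiden resolution of 2.0 each left the main LSEC cluster of HFD_sed unnamed, so that 467 and 744 of its cells stayed in the class in place of 2485. Over those fewer cells the log2 ratio of Trib3 was -0.13 and 0.11 and that of Asns 0.47 and 0.78, none of them called. Atf4, Chac1 and Herpud1 of HFD_sed over S kept their calls under each of the 9 settings that changed the cells or the scaling, but Atf4 and Herpud1 do not reach a fold of 2.

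**Figure D2:**
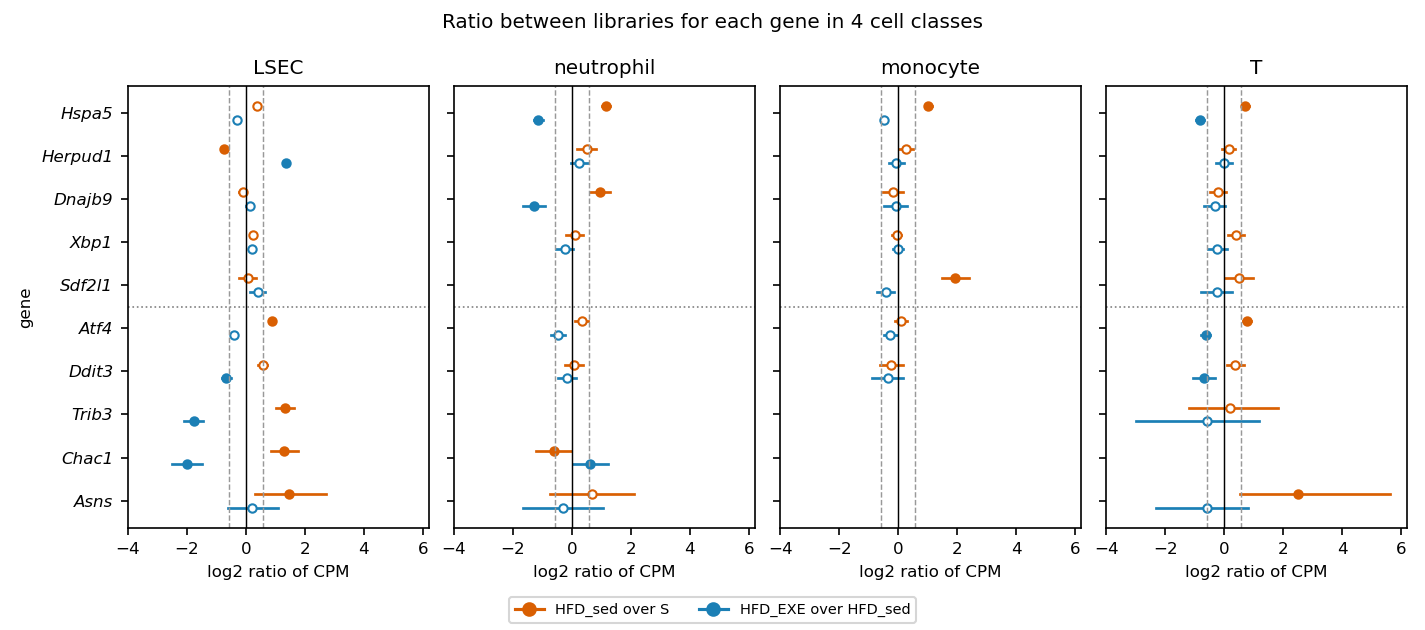
Log2 ratio of CPM with its 95% interval for each gene in 4 classes, HFD_sed over S in orange and HFD_EXE over HFD_sed in blue. Filled points passed the call rule, dashed lines mark the fold of 1.5, and pairs under 20 UMIs are left out. In LSEC the orange points of Atf4, Trib3, Chac1 and Asns lie to the right and that of Herpud1 to the left, while in neutrophils and monocytes Hspa5 lies to the right and Atf4 near 0.

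Neutrophils are short-lived phagocytes, and in them the higher calls lay in the chaperone arm, for 2 of its 4 measured genes. Hspa5 was 335 CPM [311, 361] in S, 744 [698, 792] in HFD_sed and 337 [312, 364] in HFD_EXE. S and HFD_EXE overlapped and HFD_sed stood above both, with a log2 ratio of 1.15 [1.01, 1.29] over S. Dnajb9 had the same order of libraries at 65.7, 127 and 52.5 CPM, a log2 ratio of 0.95 [0.62, 1.29]. Herpud1 (84.9, 120 and 141 CPM) and Xbp1 (121, 130 and 109 CPM) were not called. Sdf2l1 was not measured, with 3, 13 and 5 UMIs. Atf4 was 168, 211 and 152 CPM, with a log2 ratio of 0.33 [0.09, 0.56], and Ddit3 110, 116 and 104 CPM, with one of 0.08 [-0.23, 0.38]. Chac1 was called lower in HFD_sed, at -0.61 [-1.21, -0.03], a call lost with each cell given the same weight (-0.46), with doublets kept (-0.53), with median-of-ratios scaling (-0.56) and without scaled genes (-0.57). The summed arms gave 0.89 [0.78, 1.003] for the chaperones and 0.15 [-0.02, 0.32] for the ATF4 arm. Of all genes measured in neutrophils, 16.6% were higher and 16.5% lower.

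Of 16 other ER chaperones, 7 were higher in neutrophils of HFD_sed than of S and none lower (median log2 ratio 0.73, against -0.05 over all genes). Among them were the lectin chaperone Canx (63.3 CPM in S and 194 in HFD_sed), the ER stress-secreted factor Manf (12.5 and 35.1 CPM), the calcium-binding chaperone Calr (89.7 and 168 CPM) and the disulfide isomerase Pdia6 (20.2 and 45.7 CPM). ATF4-linked genes outside the 10 were not flat in these cells: 3 of 7 measured transcription factors and signals were higher, with Gdf15 at 2.40 CPM (5 UMIs) in S and 139 CPM in HFD_sed, and 2 of 6 amino acid genes, Slc7a11 (735 and 3184 CPM) and Slc3a2 (99.8 and 369 CPM), its partner subunit. Cth, of cysteine synthesis, was lower (9.12 and 2.29 CPM). The 2 neutrophil clusters divided the result. Cluster 8 held 96.6% of the neutrophils of S and 95.7% of those of HFD_EXE, while cluster 20 held 62.0% of those of HFD_sed. In cluster 8, Hspa5 was 316, 417 and 327 CPM and Dnajb9 64.1, 50.4 and 53.0 CPM in S, HFD_sed and HFD_EXE, whereas cluster 20 of HFD_sed had 970 and 180 CPM in 300 cells. Chac1 was 43.2, 44.8 and 42.4 CPM in cluster 8 and 15.5 CPM (12 UMIs) in cluster 20 of HFD_sed. Immediate early genes summed to 24682, 30224 and 32283 CPM and heat shock genes to 465, 785 and 509 CPM. Their part was not tested.

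Among the 10 genes, monocytes had calls in the chaperone arm alone, for 2 of its 5 genes. Hspa5 was 399 CPM [368, 431], 813 [795, 831] and 580 [540, 623] in S, HFD_sed and HFD_EXE, a log2 ratio of 1.03 [0.91, 1.15] for HFD_sed over S. Sdf2l1 was 28.3 CPM (45 UMIs), 108 (1090 UMIs) and 80.8 (108 UMIs), a log2 ratio of 1.93 [1.501, 2.40]. For both genes HFD_sed was highest, HFD_EXE next and S lowest, without overlap. The rest of the arm was not called: Herpud1 was 103, 123 and 118 CPM, Dnajb9 55.3, 49.2 and 47.1 CPM and Xbp1 238, 231 and 233 CPM. Atf4 was 161, 172 and 144 CPM, a log2 ratio of 0.10 [-0.09, 0.29], and Ddit3 41.5, 35.0 and 27.7 CPM. Trib3, Chac1 and Asns were not measured, with at most 8 UMIs in a library. Of 16 other ER chaperones 9 were higher and none lower, with a median of 0.69 against -0.14 over all genes, and 7.95% of all genes were higher and 18.4% lower. Creld2 (13.2 CPM in S and 46.0 in HFD_sed), Pdia6 (99.2 and 257 CPM), Calr (316 and 712 CPM) and Manf (98.0 and 207 CPM) led the list. Of 15 genes of ER-associated degradation and translocation, 3 were higher: Sec61b, Edem1 and Sec24d. ATF4-linked genes outside the 10 were not flat: of 8 measured transcription factors and signals 3 were higher and none lower (median 0.32), Gdf15 (6.91 and 65.0 CPM), Atf3 (367 and 1181 CPM) and Cebpb (1254 and 2280 CPM). Of 14 measured amino acid genes 1 was higher, Slc7a11 (36.4 and 176 CPM), and 3 were lower, Pck2, Cth and Slc38a2. The class lay in different clusters, with 60.8% of monocytes of S in cluster 21 and 85.8% of those of HFD_sed in cluster 9. Hspa5 was highest in HFD_sed within each: in cluster 9, Hspa5 was 456, 835 and 671 CPM and Sdf2l1 41.6, 113 and 99.7 CPM, and in cluster 21, Hspa5 was 338, 561 and 296 CPM. Immediate early genes summed to 9701, 15670 and 8460 CPM, with 6 of 12 higher in HFD_sed, and heat shock genes to 1341, 1996 and 1258 CPM, with 4 of 9 higher. Their part was not tested.

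T cells had both. Hspa5 was 220 CPM [205, 236], 361 [348, 373] and 205 [187, 224], and Atf4 134 CPM [123, 147], 230 [220, 240] and 148 [133, 165]. For each gene S and HFD_EXE overlapped and HFD_sed was above them. The log2 ratios of HFD_sed over S were 0.71 [0.60, 0.83] and 0.78 [0.63, 0.92], beside a median of 0.11 over all genes of T cells, of which 12.6% were higher and 10.9% lower. Asns was called higher on 2 UMIs in S and 28 in HFD_sed (0.554 and 3.16 CPM, log2 ratio 2.51 [0.53, 5.63]). Herpud1 (60.3, 67.0 and 67.0 CPM), Dnajb9 and Xbp1 were within the fold. Of 16 other ER chaperones, 3 were higher, namely Hsp90b1 (218 and 367 CPM), Calr (205 and 319 CPM) and Creld2 (8.03 and 14.1 CPM), as were 7 of 12 immediate early genes, whose part was not tested. T cells of S and HFD_EXE lay mostly in cluster 10 and those of HFD_sed mostly in cluster 5. Within cluster 10, Atf4 was 117, 224 and 134 CPM and Hspa5 187, 271 and 182 CPM, and within cluster 5, Hspa5 was 341, 371 and 242 CPM. Both calls rest on how T cells were clustered: at Leiden resolutions of 2.0 and 0.5, where the class held 278 and 939 cells of S in place of 541, Hspa5 had log2 ratios of -0.12 and 0.42 and Atf4 of 0.31 and 0.58. Asns was not called at resolution 2.0 either (0.40).

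Calls in the other classes were fewer. In B cells, where 5.74% of all genes were higher and 8.83% lower, Herpud1 was 110, 186 and 230 CPM, lowest in S and highest in HFD_EXE, with a log2 ratio of 0.76 [0.56, 0.96] for HFD_sed over S. Sdf2l1 in B cells was 6.90, 15.1 and 8.79 CPM, on 20, 49 and 16 UMIs, and its log2 ratio of 1.13 [0.35, 1.96] became -0.31 with free RNA subtracted. Herpud1 was therefore higher in B cells and lower in LSEC of the same library, and the difference between the classes was not tested. Under the fold but with intervals apart, Hspa5 of B cells was 253 CPM in S and 346 in HFD_sed, and Atf4 204 and 289. Dnajb9 (60.0 and 58.5 CPM) and Ddit3 (59.0 and 49.6 CPM) were lower, with overlapping intervals. The summed arms of B cells had 0.46 [0.36, 0.55] for the chaperones and 0.38 [0.24, 0.51] for the ATF4 arm. Vascular endothelium, where 11.7% of genes were higher and 7.61% lower, had Trib3 at 4.14 CPM (10 UMIs), 13.3 (18 UMIs) and 6.93 (17 UMIs), a log2 ratio of 1.69 [0.50, 2.97]. Trib3 was also called higher in LSEC. Under the fold but with intervals apart, Hspa5 of vascular endothelium was 230 CPM in S and 343 in HFD_sed. Likewise, Xbp1 was 113 and 161 CPM and Atf4 128 and 181 CPM. Herpud1 and Dnajb9 were lower, with overlapping intervals. The summed chaperone arm had 0.29 [0.17, 0.42] and the ATF4 arm 0.51 [0.29, 0.73]. Hepatocytes, with 15.7% higher and 11.5% lower, had Xbp1 at 120, 183 and 134 CPM and Sdf2l1 at 8.62, 22.2 (9 UMIs) and 15.7 CPM, both called higher in HFD_sed. Xbp1 was not called without scaled genes (0.42), and Sdf2l1 not with equal weight for each cell (0.67), nor without the cluster of low UMI counts (1.95). That cluster held 91.4% of the hepatocytes of S and 22.4% of those of HFD_sed. Kupffer cells (7.71% of genes higher, 5.85% lower) and dendritic cells (6.04% and 7.66%) had no call in either arm. In Kupffer cells Hspa5 was 685, 658 and 598 CPM and Atf4 176, 155 and 161 CPM. Under the fold but with intervals apart, Herpud1 was 77.8 CPM in S and 106 in HFD_sed and Sdf2l1 32.1 and 47.1. Ddit3 was lower in HFD_sed, also with intervals apart (51.3 and 36.7 CPM). The summed chaperone arm of Kupffer cells had 0.01 [-0.04, 0.07] and the ATF4 arm -0.24 [-0.38, -0.11]. These levels compare different clusters, with 96.8% of Kupffer cells of S in cluster 4 and 83.1% and 93.4% of those of HFD_sed and HFD_EXE in cluster 7. Per Kupffer cell, S had a median depth of 10289 UMIs against 2364 in HFD_sed. In dendritic cells the chaperone arm was not flat, although each gene stayed under the fold. Hspa5 there was 463 CPM in S and 610 in HFD_sed, Herpud1 171 and 249, and Sdf2l1 78.1 and 117, with intervals apart. Xbp1 and Dnajb9 had log2 ratios of 0.22 [-0.02, 0.46] and -0.23 [-0.64, 0.19]. The summed chaperone arm had 0.40 [0.31, 0.48] and the ATF4 arm -0.11 [-0.29, 0.08]. Of 16 other ER chaperones, 6 were higher and none lower.

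**Figure D3:**
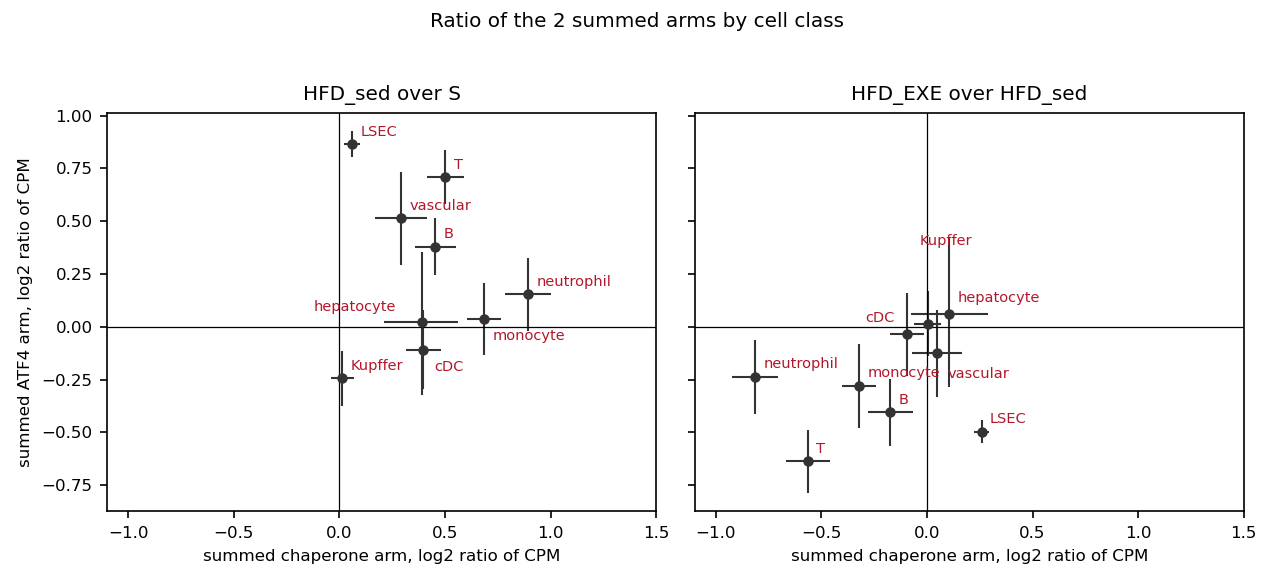
Log2 ratio of the summed chaperone arm (horizontal) and of the summed ATF4 arm (vertical) by class, with 95% intervals as bars. With HFD_sed over S, LSEC stand at 0.06 and 0.87 and neutrophils at 0.89 and 0.15, with T cells at 0.50 and 0.71 between them. With HFD_EXE over HFD_sed, LSEC stand at 0.26 and -0.50 and neutrophils at -0.82 and -0.24.

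The comparison of HFD_EXE with HFD_sed asks how the arms differed with exercise under the diet. It shares the library HFD_sed with the comparison above, so an unusual value there would enter both with opposite signs. Of 44 measured pairs in the chaperone arm, 3 were higher and 4 lower in HFD_EXE, and of 27 measured pairs in the ATF4 arm, 2 were higher and 5 lower. Over all genes, 9.22% of pairs were higher and 8.67% lower. In LSEC, where 8.41% of genes were higher and 12.3% lower, Chac1 had a log2 ratio of -2.00 [-2.50, -1.503], Trib3 of -1.77 [-2.09, -1.45] and Ddit3 of -0.66 [-0.82, -0.50]. Atf4 had one of -0.40 [-0.46, -0.34], under the fold, and stayed at 182 CPM in HFD_EXE against 130 in S. Asns was at 0.22 [-0.60, 1.10]. The call of Ddit3 was lost at resolution 2.0 (-0.29), where Trib3 had -0.67 and was no longer called, and Ddit3 turned to 0.54 with free RNA subtracted.

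Herpud1 made all the higher calls of the chaperone arm in HFD_EXE. In LSEC its log2 ratio was 1.37 [1.29, 1.45], and the level of HFD_EXE was above S as well as HFD_sed. It was also higher in vascular endothelium (128, 97.2 and 215 CPM in S, HFD_sed and HFD_EXE; log2 ratio 1.15 [0.87, 1.43]) and in hepatocytes (126, 185 and 377 CPM; 1.02 [0.68, 1.38]). The share of all genes called higher was 7.36% in vascular endothelium and 6.6% in hepatocytes, with 10.5% and 7.28% lower. The level of hepatocytes of S is mostly that of the cluster of low UMI counts, which held 91.4% of them. It held 22.4% and 27.1% of those of HFD_sed and HFD_EXE. Dendritic cells, where 10.9% of genes were higher and 5.28% lower, had Herpud1 lower (171, 249 and 156 CPM; -0.68 [-0.88, -0.48]). In T cells it was 67.0 CPM in both libraries. Hspa5 of LSEC went the other way by less, at -0.31 [-0.36, -0.26]. Xbp1 and Sdf2l1 of LSEC went the same way as Herpud1, under the fold and with intervals apart. They were 150 and 172 CPM, and 11.6 and 15.3 CPM, in HFD_sed and HFD_EXE. Dnajb9 was 61.7 and 67.4 CPM, with overlapping intervals. No other member of the chaperone arm was called higher in any class. Within LSEC, Herpud1 was higher in HFD_EXE in each of the 4 clusters with at least 50 cells of both libraries: 250 against 96.6 CPM in cluster 0, 237 against 78.1 in cluster 1, 163 against 95.2 in cluster 2 and 250 against 106 in cluster 17. The window of Herpud1 printed above holds both kinds of element, and any link between them and these levels was not tested.

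**Figure D4:**
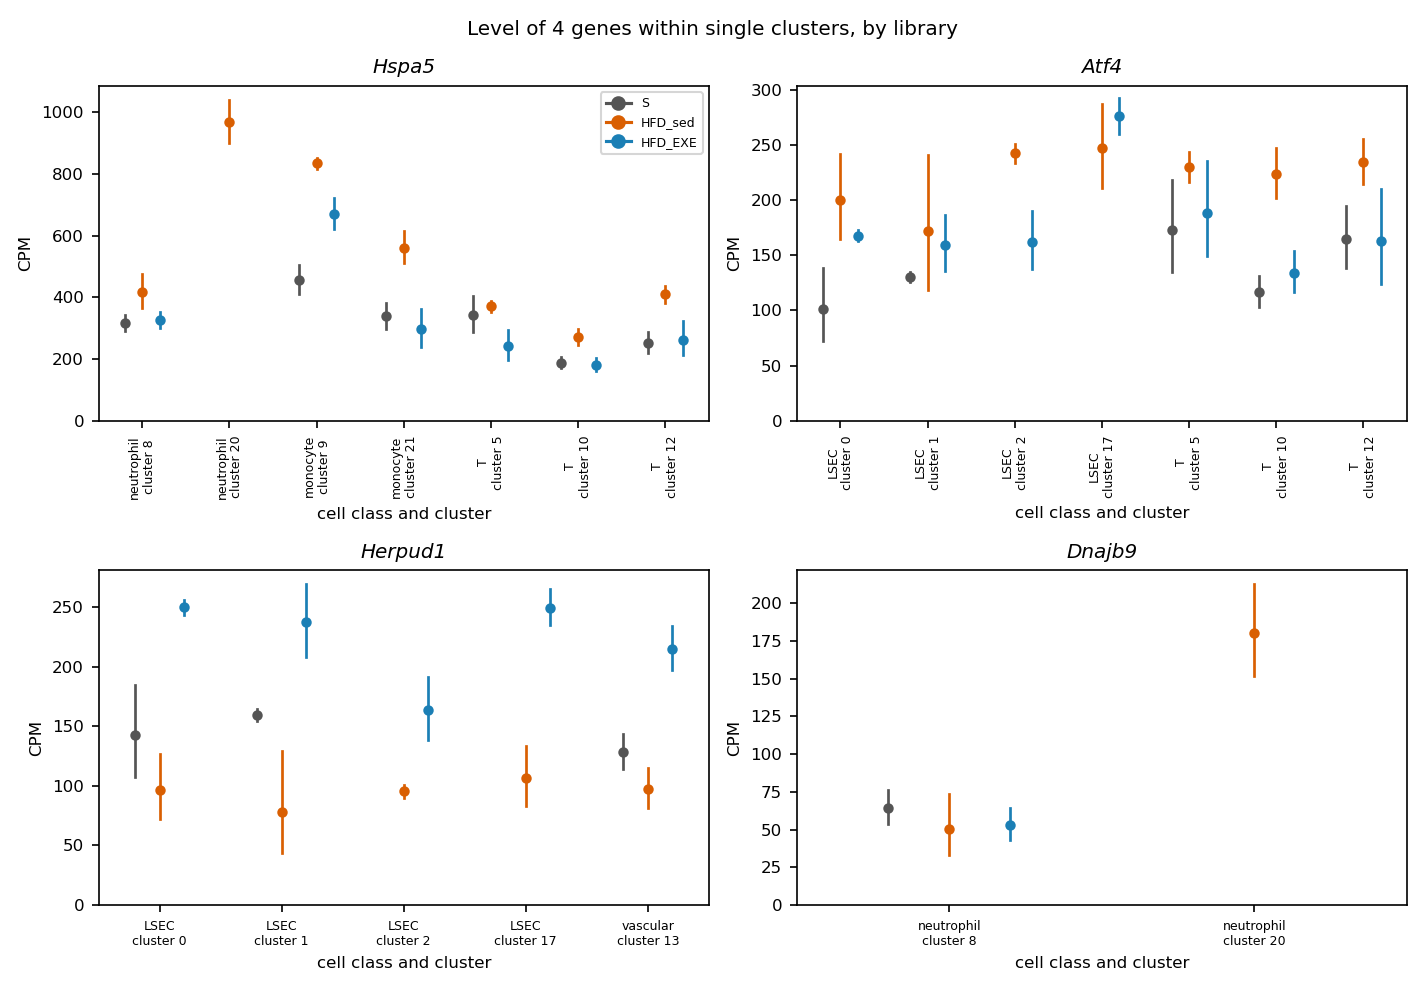
CPM with 95% intervals (vertical lines) of Hspa5, Atf4, Herpud1 and Dnajb9 in single clusters with at least 50 cells of a library, S in grey, HFD_sed in orange and HFD_EXE in blue. Herpud1 of HFD_EXE lies above HFD_sed in each LSEC cluster, while Dnajb9 of HFD_sed is high in neutrophil cluster 20 (180 CPM) and not in cluster 8 (50.4 CPM).

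In neutrophils Hspa5 and Dnajb9 were lower in HFD_EXE than in HFD_sed, by log2 ratios of -1.14 [-1.29, -0.999] and -1.28 [-1.65, -0.91], and Chac1 was higher at 0.61 [0.03, 1.22], a call lost with doublets kept (0.48), with equal weight for each cell (0.49) and with median-of-ratios scaling (0.49). Here 17.6% of all genes were higher and 13.3% lower. Cluster 20 held 62.0% of neutrophils of HFD_sed and 4.34% of those of HFD_EXE, and within cluster 8 Hspa5 was 417 and 327 CPM. Of 16 other ER chaperones, 6 were lower and none higher in neutrophils of HFD_EXE, with Hyou1 (25.2 CPM in HFD_sed and 6.12 in HFD_EXE), P4hb (111 and 49.0 CPM), Canx (194 and 98.9 CPM) and Ero1b (21.3 and 8.67 CPM) first. In T cells, Hspa5, Atf4 and Ddit3 were lower at -0.82 [-0.96, -0.68], -0.63 [-0.80, -0.47] and -0.67 [-1.05, -0.30], where 8.14% of all genes were higher and 12.3% lower and the median of all genes was -0.14. These calls again depended on the clustering: at resolution 2.0, Hspa5 had 0.28 and Atf4 -0.30, at 0.5 Ddit3 had -0.52, and with free RNA subtracted Hspa5 had 0.29. Monocytes (11.9% of genes higher, 4.14% lower), B cells (4.02% and 6.13%) and Kupffer cells (9.93% and 6.3%) had no call in either arm. In monocytes Hspa5 was at -0.49 [-0.59, -0.38] and Sdf2l1 at -0.42 [-0.72, -0.13]. Trib3 of hepatocytes was called higher on 1 UMI in HFD_sed and 38 in HFD_EXE (2.47 and 17.6 CPM, log2 ratio 2.83 [0.26, 8.17]), and not with doublets kept (1.76).

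The wider ATF4-linked lists of LSEC did not all follow Chac1 and Trib3. Of 13 measured amino acid genes, 3 were lower in HFD_EXE than in HFD_sed, namely Slc7a11 (3.01 CPM in HFD_sed and 0.979 in HFD_EXE), Phgdh (0.957 and 0.261 CPM) and Mthfd2 (2.87 and 1.76 CPM), and the neutral amino acid transporter Slc7a5 was higher (39.7 and 74.8 CPM). Of 9 transcription factors and signals 4 were lower, among them Atf3 (69.4 and 29.1 CPM), and 2 were higher, the mTOR inhibitor Ddit4 (62.7 and 153 CPM) and Cebpb (245 and 407 CPM). None of the 16 other ER chaperones was called in LSEC. Of 12 immediate early genes 9 were lower in LSEC of HFD_EXE, as were 3 of 10 heat shock genes, and their part in these values was not tested.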

How the data were processed

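Droplet 3′ version 3 libraries of dissociated liver cells were prepared after red cell lysis and dead cell removal, per the labels' protocols. The submitters' processing notes name Cell Ranger 6.1.2 and GRCm39 without further settings. What the authors deposited are raw UMI counts for every gene and cell barcode, unnormalized. Identifiers sharing a symbol were summed, and Ddit3 had 2 identifiers, the second with no UMI.

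Cells were kept with at least 500 UMIs, 300 genes and under 15% mitochondrial UMIs. Scrublet in Scanpy 1.11.5 scored doublets. Its automatic threshold marked 467, 299 and 0 cells in S, HFD_sed and HFD_EXE, so the mean threshold of S and HFD_sed (0.219) was used throughout, after this was seen, and removed 403, 328 and 295 cells. The 3 libraries were clustered together without integration, on 2000 scaled variable genes, 30 principal components and 15 neighbours, with leidenalg 0.10.2 at resolution 1.0, which gave 29 clusters. A cluster was named from at least 3 detected markers of 1 of 22 cell types. Scaling was chosen after clustering without it had left the main LSEC cluster of HFD_sed unnamed.

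Counts were summed per class and library. Gene ratios carry exact conditional binomial intervals (95%), a gene with 0 UMIs is bounded at 3 counts, and cells were not used as replicates. The calling script was tested on simulated data. All members are named, and of other lists up to 4 genes per class and comparison whose interval lay farthest from no change, besides those called against the others. Highest and lowest classes, and for plasma cells a class too small to compare, were described as levels. The members, lists and markers were chosen with earlier results of these data known. Class names come from these markers and can differ from the study's.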

Additional observations from a re-analysis of the deposited data

Results flagged for a closer look

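Herpud1 differed in opposite directions between classes of the same libraries. For HFD_EXE over HFD_sed its log2 ratio was 1.37 in LSEC, 1.15 in vascular endothelium and 1.02 in hepatocytes but -0.68 in conventional dendritic cells. For HFD_sed over S it was 0.76 in B cells and -0.73 in LSEC.

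Chac1 was opposite in LSEC and neutrophils in both comparisons. Its log2 ratio for HFD_sed over S was 1.29 in LSEC and -0.61 in neutrophils, and for HFD_EXE over HFD_sed it was -2.00 and 0.61. Both neutrophil calls were lost with doublets kept (-0.53 and 0.48). Over all libraries Chac1 was 43.1 CPM in neutrophil cluster 8 and 15.2 CPM in cluster 20. Cluster 20 held 62.0% of neutrophils of HFD_sed but 3.44% and 4.34% of those of S and HFD_EXE. Within cluster 8 the libraries stood close, as given above. Trib3 for HFD_EXE over HFD_sed stood at -1.77 in LSEC and at 2.83 in hepatocytes, the latter on 1 UMI in HFD_sed.

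Each of these pairs was picked out because the single library of each group gave opposite calls in the classes named. The difference between classes was not tested, and with 1 library a group it cannot be.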

How the results depend on the processing

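Of 32 calls of a gene in a class, 16 stood in every setting that gave a value and left the fold and UMI minimum of a call as they were, and 10 also at a fold of 2 and at 100 UMIs. The 10 were Chac1 in LSEC and Hspa5 in neutrophils in both comparisons, Hspa5 and Sdf2l1 in monocytes over S, and, over HFD_sed, Dnajb9 in neutrophils and Herpud1 in LSEC, vascular endothelium and hepatocytes. The difference of Dnajb9 was not seen within neutrophil cluster 8, as given above. Subtraction of free RNA gave no value for neutrophils. A fold of 2 ended, among others, the calls over S of Atf4 and Herpud1 in LSEC and of Dnajb9 in neutrophils. The counts of calls moved as follows, with the reported ones being 9 higher and 1 lower for the chaperone arm and 7 and 1 for the ATF4 arm in HFD_sed over S, then 3 and 4, and 2 and 5, in HFD_EXE over HFD_sed. At Leiden resolution 2.0, lower chaperone calls and higher ATF4 calls were 3 each over S, and higher chaperone and lower ATF4 calls were 5 and 2 over HFD_sed. Without scaling before clustering, chosen after seeing the data, lower chaperone and higher ATF4 calls were 3 each over S and lower ATF4 calls 3 over HFD_sed. In that clustering most LSEC of HFD_sed were unnamed and vascular endothelium, with 54 cells in S, was not compared. With doublets kept, higher chaperone calls over S were 16, lower ATF4 calls over S were 0 and higher ATF4 calls over HFD_sed 0. At a fold of 2, higher and lower chaperone calls over S were 5 and 0 and lower ATF4 calls 0, and over HFD_sed lower chaperone calls were 2 and higher and lower ATF4 calls 1 and 2. At 100 UMIs, higher ATF4 calls were 4 over S and 1 over HFD_sed. Higher ATF4 calls over HFD_sed were 1 with at least 1000 UMIs per cell, with each cell weighted equally and with median-of-ratios scaling, and lower ATF4 calls over S were 2 with equal weights and 0 with median-of-ratios. Free RNA was subtracted at its upper limit, set by hepatocyte transcripts of the class against those of all kept cells. That limit was 100% in neutrophils of S and HFD_sed and in Kupffer cells of HFD_sed and gave no value there. For hepatocytes it was fixed at 0, so this setting subtracted nothing from them. In HFD_sed the limit was 88.9% in monocytes and 79.3% in LSEC, against 55.4% and 42.5% in S. With free RNA subtracted, lower chaperone calls were 10 and lower ATF4 calls 3 over S, and higher chaperone calls were 13 over HFD_sed.

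The log2 ratio turned for Hspa5 in T cells at resolution 2.0 (-0.12 over S and 0.28 for HFD_EXE over HFD_sed), and with free RNA subtracted for Hspa5 in T cells (0.29, HFD_EXE over HFD_sed), Ddit3 in LSEC (0.54, HFD_EXE over HFD_sed) and Sdf2l1 in B cells (-0.31, HFD_sed over S). Trib3 in LSEC turned to -0.13 (HFD_sed over S) without scaling. The cause was not tested. No paired analysis was possible because each group had 1 library and the groups compared share no replicate number. For the same reason no replicate could be left out. Depth limits Trib3, Chac1 and Asns, which were measured in few classes.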
